A study of Mus musculus with 24 samples.

Results

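The genes described here are 33 genes of fatty acid uptake and oxidation, measured in the gastrocnemius (a calf muscle) and the heart of the same mice. Members were taken by symbol: a probe set counted for a gene when the array annotation gave it that single symbol. Of the 33 genes, 31 had such a probe set, out of 18193 genes with a probe set of a single symbol on the array. Where a gene had several probe sets, the brightest in the tissue was read. Cpt1b and Acsl1 had no probe set with a single symbol and are named only.

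The study used 24 Affymetrix arrays, 1 of each tissue from 12 male mice aged 2 months, in 4 genotypes with 3 animals each. Wild type mice and Cmah knockout mice carried the strain label C57BL/6J. The other groups, mdx mice and Cmah knockout mdx mice, carried the label C57BL6/10J, so strain and dystrophin loss cannot be told apart. The mdx mouse lacks dystrophin and is a model of Duchenne muscular dystrophy, and the Cmah knockout carries a human-like loss of the enzyme that makes the sialic acid Neu5Gc. The questions were how dystrophin loss and Cmah loss, alone and together, change expression in skeletal and cardiac muscle.

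Muscle takes up fatty acids that lipoprotein lipase frees from circulating lipids, moves their acyl groups into mitochondria through the carnitine shuttle and shortens them there by repeated rounds of beta-oxidation. Each round passes electrons through the electron transfer flavoprotein to the respiratory chain. The heart draws most of its energy from fatty acids, whereas a calf muscle rich in fast fibres relies more on glycogen and glucose. The nuclear receptor Ppara and its coactivator Ppargc1a switch many of these genes on together.

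All levels below are log2 intensities, and the number of arrays limits their precision. Dmd, the dystrophin gene, was at 7.54 to 8.59 in gastrocnemius arrays labelled mdx or Cmah knockout mdx, against 9.99 to 10.26 in the others. In heart it was at 8.16 to 9.12 against 9.66 to 10.09, apart from 1 Cmah knockout array at 8.01. That array (Cmah knockout replicate 3) and the heart array of Cmah knockout mdx replicate 2 stood apart: their 3' and 5' Gapdh control probe sets differed by 4.29 to 4.43 log2, against at most 1.60 elsewhere. In these arrays 23 and 15 of the 31 members lay below all 10 remaining heart arrays, and 3 and 6 lay above them. Their upper quartiles over all probe sets were 6.74 and 7.57, against 7.82 to 8.02 in the remaining hearts. The share of all genes outside the remaining arrays is not given here, so these counts are not a trait of the members. A milder difference marked 4 animals, 1 of each genotype, with Gapdh differences of 0.76 to 1.02 in gastrocnemius and 0.98 to 1.60 in heart, against 0.36 to 0.71 and 0.44 to 0.54 in the rest. The Cmah probe set did not separate the knockouts: it was at 5.73 to 8.11 in the 6 Cmah knockout gastrocnemius arrays (both dystrophin states) and 6.24 to 7.89 in the rest, and at 5.33 to 7.72 in such hearts against 5.48 to 8.40. Whether it lies in the deleted part is not known, so it does not check the labels. Cardiomyocyte markers were higher in heart for 14 of 14 genes (median 5.65) and fast fibre markers lower for 12 of 12 (median -4.13). Tissue is bulk RNA, so fewer cells of a type and less RNA per cell cannot be told apart.

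The clearest difference among these genes was between the tissues. Over the 4 genotypes, 17 of the 31 members were higher in heart and 2 were lower (limma with animal as a random block, Benjamini-Hochberg adjusted p below 0.05), with a median heart minus gastrocnemius difference of 0.82. Of all 14091 genes tested, 11.1% were called higher and 18.8% lower in heart, and their median was -0.11. Without the 2 deviating heart arrays, the same 19 members were called and 5 more joined them, giving 22 higher and 2 lower with a median of 1.02. Of all probe sets, 22.3% were then called higher and 18.1% lower, against 11.9% and 14.9% with all arrays. Without the 4 animals with the milder Gapdh difference, 13 members were called and the median was 0.67. Of all probe sets 17.5% were called there, against 26.8% with all arrays.

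**Figure D1:**
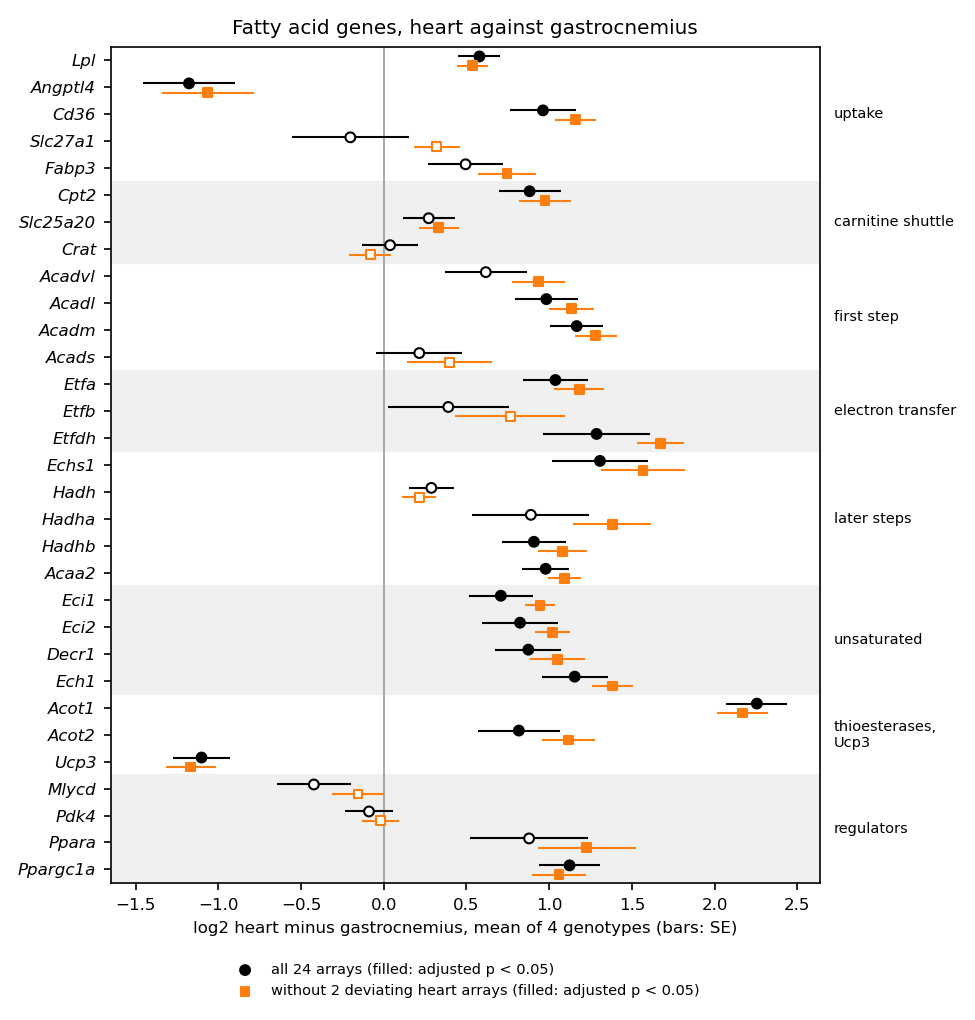
Difference between heart and gastrocnemius for each member (x axis, log2, mean of the 4 genotypes; bars are SE), with all 24 arrays (black circles) and without the 2 deviating heart arrays (orange squares); filled symbols passed an adjusted p of 0.05. Acot1 lies farthest to the right at 2.25, Angptl4 and Ucp3 lie to the left at -1.18 and -1.10, and most enzymes of beta-oxidation lie to the right of 0.

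Of the 5 uptake genes, 2 were called higher in heart (Lpl and Cd36) and 1 lower (Angptl4). Lipoprotein lipase (Lpl), the enzyme that frees fatty acids from circulating lipids, was at 12.94 to 13.54 in the 12 heart arrays and at 12.23 to 12.80 in the 12 gastrocnemius arrays. No heart array reached down to the gastrocnemius range, and 12 of 12 animals were higher in heart. The difference was 0.58 ± 0.13 (SE), or 1.49-fold, with a limma adjusted p of 0.00151, and 0.53 without the deviating arrays. The other Lpl probe set differed by more (1.66 ± 0.28, limma adjusted p 9.43e-05). The probe set read, at up to 13.54, lay near the highest value of any probe set on a heart array (13.71 to 14.05). Lpl and Acot1 were the members whose tissues did not overlap, in the direction higher in heart, against 1.3% of all genes. Angptl4, a secreted inhibitor of lipoprotein lipase, ran the opposite way. Its lowest, median and highest values were 6.68, 7.59 and 8.58 in heart and 7.15, 8.68 and 10.01 in gastrocnemius, so the tissues overlapped. It was 2.26-fold lower in heart (-1.18 ± 0.28, limma adjusted p 0.00283) and higher in heart in 2 of 12 animals.

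Cd36, the fatty acid translocase of the cell membrane, was 1.95-fold higher in heart (0.96 ± 0.20, limma adjusted p 0.000773). Its 12 gastrocnemius arrays ran from 9.95 to 11.34 with a median of 10.68. Its heart arrays ran from 11.62 to 12.33 apart from the deviating Cmah knockout array at 9.78. Both other Cd36 probe sets were higher in heart as well, by 1.24 ± 0.24 and 1.35 ± 0.37. Fabp3, the fatty acid binding protein of heart and muscle, differed by 0.49 ± 0.23 and missed the threshold (limma adjusted p 0.113), and passed it without the deviating arrays at 0.74. Slc27a1, a fatty acid transport protein, had a difference of -0.20 ± 0.35, which became 0.32 without them, and passed in neither case.

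Of the carnitine shuttle, Cpt2, which rebuilds acyl-CoA inside the mitochondrion, was 1.84-fold higher in heart (0.88 ± 0.19, limma adjusted p 0.00109). Slc25a20, the carrier that brings acylcarnitine across the inner membrane, differed by 0.27 ± 0.16 and passed only without the deviating arrays (0.33, limma adjusted p 0.0367). Crat, carnitine acetyltransferase, stood at 0.04 ± 0.17, with 6 of 12 animals higher in heart. With all arrays, then, 1 of the 3 shuttle members with a probe set passed.

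Acyl-CoA dehydrogenases carry out the first step of each round, each for a range of chain lengths. Acadm, the medium-chain enzyme, had lowest, median and highest values of 11.36, 12.26 and 12.50 in heart and 10.54, 11.01 and 11.49 in gastrocnemius. Only the deviating Cmah knockout heart array fell inside the gastrocnemius range, the next lowest heart value being 11.91. The difference was 1.17 ± 0.16, or 2.24-fold (limma adjusted p 7.26e-06). Acadl, the long-chain enzyme, was 1.98-fold higher (0.98 ± 0.19). Acadvl, for very long chains, missed the threshold at 0.62 ± 0.25 (limma adjusted p 0.0729) and passed at 0.94 without the deviating arrays. Acads, for short chains, was at 0.21 ± 0.26 and passed in neither.

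Electron transfer genes receive the electrons of that step. Etfdh, the membrane enzyme that hands them to ubiquinone, was 2.44-fold higher in heart (1.29 ± 0.32, limma adjusted p 0.00484). Its heart arrays ran from 11.57 to 12.31 against 9.36 to 10.89 in gastrocnemius, apart from the deviating Cmah knockout array at 7.64, and without both deviating arrays the difference was 1.67. Etfa, one subunit of the flavoprotein, was 2.05-fold higher (1.04 ± 0.20). Its partner Etfb had 0.39 ± 0.36 (limma adjusted p 0.468). By animal, Etfb differed by -2.48 and -1.93 where the heart array deviated, and by 0.44 to 1.43 in the other animals.

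The later steps hydrate, oxidise and cleave the chain. Echs1, the short-chain hydratase, had lowest, median and highest values of 8.50, 10.87 and 11.50 in heart and 7.71, 9.55 and 10.22 in gastrocnemius. It was 2.47-fold higher in heart (1.31 ± 0.29, limma adjusted p 0.00159) and higher in 11 of 12 animals. Hadhb, one subunit of the trifunctional protein for long chains, was 1.88-fold higher (0.91 ± 0.19). Its partner Hadha had 0.89 ± 0.35 (limma adjusted p 0.0682), with heart values from 7.59 to 11.72, and passed at 1.38 without the deviating arrays. Acaa2, the thiolase that releases acetyl-CoA, was 1.97-fold higher (0.98 ± 0.14, limma adjusted p 1.64e-05) and higher in 12 of 12 animals. Its other probe sets, at 0.87 ± 0.35 and 1.48 ± 0.59, missed the threshold (limma adjusted p 0.0686 and 0.071). Hadh, the dehydrogenase for shorter chains, was at 0.29 ± 0.14 (limma adjusted p 0.125).

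Enzymes that prepare unsaturated chains were all called higher in heart. Ech1, a dienoyl-CoA isomerase, was at 12.78 to 13.12 in the 10 heart arrays that did not deviate and at 11.14 to 12.08 in gastrocnemius. Without the deviating hearts 12 of the 31 members did not overlap between the tissues, on the side higher in heart, against 4.9% of all genes: Ech1, Lpl, Cd36, Acadm, Acadl, Etfa, Etfdh, Hadhb, Acaa2, Eci1, Eci2 and Acot1. Over all arrays Ech1 was 2.23-fold higher (1.15 ± 0.20, limma adjusted p 0.000134). Decr1, the mitochondrial dienoyl-CoA reductase, was 1.83-fold higher (0.87 ± 0.20). Its other probe set, the brighter of them in heart, differed by more (1.36 ± 0.20, limma adjusted p 1.51e-05). The enoyl-CoA isomerases Eci1 and Eci2 were 1.63-fold and 1.77-fold higher (0.71 ± 0.19 and 0.82 ± 0.23).

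Acot1 showed the largest measured difference of any member. This cytosolic thioesterase frees fatty acids from acyl-CoA. Its 12 gastrocnemius arrays ran from 4.54 to 5.88 and its 12 heart arrays from 6.10 to 9.21, so that the tissues did not overlap. The gastrocnemius values lay near the 40th percentile of all values there (4.66), and 2 of the 12 lay below it. The deposited values hold no measure of background, so this probe set is not shown to be above it in gastrocnemius. The measured difference was 2.25 ± 0.18, or 4.77-fold (limma adjusted p 3.41e-09), in 12 of 12 animals, and the fold may therefore be only a lower bound. Acot2, its mitochondrial counterpart, was 1.76-fold higher (0.82 ± 0.25, limma adjusted p 0.0166), with heart values of 9.29 to 12.41 and gastrocnemius values of 10.10 to 11.41. The coding sequences of Acot1 and Acot2 are very alike, so how far each probe set sees the other transcript is uncertain.

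Ucp3, a mitochondrial carrier whose RNA is known to follow fatty acid supply, was 2.15-fold lower in heart (-1.10 ± 0.17, limma adjusted p 3.93e-05). Its lowest, median and highest values were 6.70, 8.01 and 9.35 in heart and 8.50, 8.97 and 9.66 in gastrocnemius. A second Ucp3 probe set was lower in heart by more (-1.36 ± 0.25). The size of the Ucp3 difference was not alike across genotypes, as described with dystrophin loss.

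Among regulators, Ppargc1a, the coactivator that drives mitochondrial genes, was at 10.49 to 12.21 in heart and 9.07 to 10.74 in gastrocnemius. It was 2.18-fold higher in heart in 12 of 12 animals (1.12 ± 0.18, limma adjusted p 7.03e-05), and its 4 other probe sets were higher in heart by 0.97 to 1.49. Ppara missed the threshold at its brightest probe set (0.88 ± 0.36, limma adjusted p 0.0754), and passed at 1.23 without the deviating arrays. Pdk4, the kinase that shuts off pyruvate dehydrogenase when fatty acids are burned, had medians of 12.97 in heart and 12.99 in gastrocnemius and a difference of -0.09 ± 0.14. Mlycd, which removes the malonyl-CoA that blocks fatty acid entry, was at -0.42 ± 0.22 (limma adjusted p 0.173). It differed by -2.32 and -1.68 in the animals with a deviating heart array and by -0.68 to 0.70 in the other animals.

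Seen by animal, 4 members were higher in heart in 12 of 12 animals, 15 in 11 and 5 in 10. For the 17 members called higher, each animal in which heart did not exceed gastrocnemius was one with a deviating heart array. Within genotypes, each with 3 animals, fewer members passed. In wild type mice 3 members were called higher (Acadm, Acot1 and Ppargc1a) and 1 lower (Ucp3), against 3.38% and 4.57% of genes. In Cmah knockout mice Acot1 was called higher and Ucp3 lower, against 3.2% and 7.81%. In mdx mice 6 were called higher (Cpt2, Acadm, Acaa2, Ech1, Etfa and Acot1) and 0 lower, against 3.52% and 4.41%. In Cmah knockout mdx mice 5 were called higher (Cd36, Acadm, Acaa2, Acot1 and Lpl) and 0 lower, against 3.57% and 7.29%. Without the deviating arrays these counts were 14 higher and 1 lower, 9 and 1, 19 and 0, and 16 and 0. In that fit the shares of all probe sets called higher were 9.14%, 5.69%, 8.32% and 5.32%, in the same order of genotypes. Those called lower were 7.02%, 5.08%, 6.36% and 6.15%.

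Related gene lists set the member counts in context, each read in the same limma fit over the 4 genotypes. In that fit 11.1% of all genes were called higher in heart and 18.8% lower. Of 26 further fatty acid oxidation enzymes tested, 10 were higher and 2 lower in heart (median 0.27). Ivd, of leucine breakdown, differed by 1.09, the thioesterase Acot13 by 1.02, and Abcd2, a peroxisomal transporter, by -1.84. Of 17 further uptake and activation genes, 1 was higher and 5 lower. The acyl-CoA synthetases Acsl3 and Acsl6 differed by -2.10 and -2.08, and Lrp1, a lipoprotein receptor, by -1.51. Of 22 further PPAR regulators and cofactors, 2 were higher and 6 lower, with the receptors Rxra at -1.57 and Esrrb at 1.22 and the transcription factor Foxo1 at -0.96.

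Of 13 other PPAR target genes, 3 were higher and 4 lower in heart: Gpd1, of glycerol phosphate metabolism, was at -2.99, while Cidea and Ucp1, both known from brown fat, were at 2.89 and 2.25. Of 15 genes of malonyl-CoA and lipid synthesis, 2 were higher and 6 lower, with the transcription factors Mlxipl at -1.84 and Srebf1 at -1.80 and Dgat2, of triglyceride synthesis, at 1.69. Lipolysis and lipid droplet genes gave 3 higher and 3 lower of 10, with Cideb at 1.58, Fitm1 at -1.23 and G0s2, an inhibitor of lipolysis, at 0.97. Ketone use gave 3 higher of 4, among them Oxct1, which activates ketone bodies, at 0.81, the transporter Slc16a1 at 0.73 and Acat1 at 0.65. Genes around pyruvate dehydrogenase gave 3 higher and 1 lower of 12, with the phosphatase Pdp2 at 1.48, the kinase Pdk2 at -1.01 and the subunit Dld at 0.76.

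Other energy pathways differed less or the other way, where 11.1% of all genes were called higher in heart and 18.8% lower. Of 16 citrate cycle genes, 2 were higher (Idh2 at 1.36 and Idh3b at 0.37, both isocitrate dehydrogenases) and 0 lower, with a median of 0.19. Of 20 respiratory chain genes, 2 were higher (Ndufs1 of complex I at 0.60 and Cox6c of complex IV at 0.54) and 0 lower, with a median of 0.10. Of 13 glycolysis genes, 0 were higher and 11 lower, with a median of -0.94. The lactate exporter Slc16a3 was at -5.06, the glycogen phosphorylase Pygm at -1.76 and the pyruvate kinase Pkm at -1.35. Without the deviating arrays the citrate cycle list gave 7 higher and the respiratory chain list 9, with medians of 0.26 and 0.22, against 1.02 for the members. In that fit 22.3% of all probe sets were called higher.

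Adipocyte markers were lower in heart as a list (5 of 8 called lower, 1 higher, median -2.04), while endothelial markers were called higher for 2 of 12 (median 0.44). Of all genes, 18.8% were called lower and 11.1% higher. Lpl, Cd36 and Angptl4 are also expressed by adipocytes or endothelium. The part of these cells in the tissue differences was not tested.

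Promoter windows were read for the members, and those of Acot1, Acot2, Ucp3, Acadm, Echs1 and Hadhb are shown. They were picked for a tissue difference, a neighbouring member or the half-site described below. They are therefore not a ranking, and matches in the windows shown are partly a result of that choice. Each window holds the 250 bases before the RefSeq start site in assembly GRCm38.p6, in the direction of the gene, and 27 of the 33 members had one. AGGTCA, the half-site bound by PPAR and other nuclear receptors, was searched on both strands and stood in 4607 of 32851 windows of all genes (14.0%). Among the members it was in the windows of Acadm, Acadvl, Cd36, Echs1 and Ucp3. A direct repeat of the half-site with 1 base between the copies was in 0 member windows and in 0.0335% of all windows. TCAAGGTCA, the extended site of estrogen-related receptors, which contains the half-site, was in 0 member windows and 0.387% of all. Such a match is a description of letters in this window only.

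Acot1, at chr12:84009252-84009501 on the plus strand, and Acot2, at chr12:83987611-83987860 on the plus strand, are shown because they are neighbouring copies with tissue differences of 2.25 and 0.82. At the best shift their windows had 75 of 223 bases in common (33.6%), so the windows are not near-copies. Ucp3, at chr7:100472741-100472990 on the plus strand, is shown because it was lower in heart and holds the half-site at positions -149 to -144 and -44 to -39 from the start site. Acadm, at chr3:153944644-153944893 on the minus strand, and Echs1, at chr7:140116422-140116671 on the minus strand, were higher in heart and hold it at -249 to -244 and -83 to -78. Hadhb, at chr5:30155003-30155252 on the plus strand, is shown because its window and that of Hadha, the other subunit of the same protein, share 228 bases on opposite strands. Capitals mark AGGTCA, or TGACCT where the half-site is on the other strand.
Acot1: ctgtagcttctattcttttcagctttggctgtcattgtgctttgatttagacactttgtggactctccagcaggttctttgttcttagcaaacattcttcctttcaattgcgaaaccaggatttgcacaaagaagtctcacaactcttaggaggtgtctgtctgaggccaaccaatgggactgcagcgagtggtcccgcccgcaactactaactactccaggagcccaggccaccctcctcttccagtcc
Acot2: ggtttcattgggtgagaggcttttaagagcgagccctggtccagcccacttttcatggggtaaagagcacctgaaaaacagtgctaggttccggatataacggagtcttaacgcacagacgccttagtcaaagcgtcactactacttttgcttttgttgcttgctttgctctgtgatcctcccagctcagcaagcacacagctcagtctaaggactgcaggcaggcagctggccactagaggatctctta
Ucp3: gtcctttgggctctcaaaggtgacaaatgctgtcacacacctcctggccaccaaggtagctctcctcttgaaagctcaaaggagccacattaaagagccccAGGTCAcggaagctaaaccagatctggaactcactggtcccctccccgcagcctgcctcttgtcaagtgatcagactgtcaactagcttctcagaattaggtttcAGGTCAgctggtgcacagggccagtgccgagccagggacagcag
Acadm: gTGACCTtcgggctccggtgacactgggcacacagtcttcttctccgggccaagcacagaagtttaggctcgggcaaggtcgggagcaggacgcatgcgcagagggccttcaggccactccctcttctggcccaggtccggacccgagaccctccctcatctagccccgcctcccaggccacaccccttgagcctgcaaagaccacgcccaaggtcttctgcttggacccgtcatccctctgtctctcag
Echs1: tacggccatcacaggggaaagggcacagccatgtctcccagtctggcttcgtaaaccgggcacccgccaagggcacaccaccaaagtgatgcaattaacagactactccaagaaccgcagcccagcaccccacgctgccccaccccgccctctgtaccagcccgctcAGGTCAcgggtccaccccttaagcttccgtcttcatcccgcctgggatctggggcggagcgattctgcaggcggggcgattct
Hadhb: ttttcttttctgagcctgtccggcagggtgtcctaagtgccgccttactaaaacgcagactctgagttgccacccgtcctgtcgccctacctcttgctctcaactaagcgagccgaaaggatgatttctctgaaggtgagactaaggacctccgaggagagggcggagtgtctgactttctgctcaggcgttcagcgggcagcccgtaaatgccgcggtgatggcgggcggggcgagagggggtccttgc

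The half-site was present beside a gene higher in heart (Acadm) and one lower there (Ucp3), and Acot1, with the largest difference, held 0 copies in this window. Hadha and Hadhb start 273 bases apart in opposite directions. Hadhb was called higher in heart with all arrays, and Hadha only without the deviating ones.

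Dystrophin loss in gastrocnemius left 0 of 31 members past the threshold (limma, Benjamini-Hochberg adjusted p below 0.05), in mdx against wild type and in Cmah knockout mdx against Cmah knockout. In mdx minus wild type 6 members were higher and 25 lower, where 47.3% of all genes were lower. The member median was -0.12 against 0.02 for all genes. No member had an unadjusted p below 0.05, the smallest being 0.239. Of all genes, 0.0227% were called higher and 0.00756% lower. In Cmah knockout mdx minus Cmah knockout 1 member was higher and 30 lower, with a median of -0.29 against 0.02, and 1 member (Cd36) had an unadjusted p below 0.05. There 0.159% of genes were called higher and 0.0302% lower, and 47.8% of genes had a negative difference. Over both comparisons, 25 members had a negative difference in both, 1 (Angptl4) a positive one in both and 5 opposite ones. The share of all genes negative in both is not given here. Between arrays of a group the member median varied with an SD of 0.18, so the members do not count as separate observations.

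Cd36 had the smallest p of these comparisons. Its values were 11.34, 10.64 and 10.85 in Cmah knockout and 10.56, 10.20 and 9.95 in Cmah knockout mdx, so the groups did not overlap. In wild type they were 10.66, 10.88 and 11.27, and in mdx 11.00, 10.70 and 10.42, which overlap. The change was -0.71 ± 0.30 with Cmah absent (limma adjusted p 0.595) and -0.23 ± 0.30 with Cmah intact. Both other Cd36 probe sets gave 0.11 ± 0.34 and 0.08 ± 0.46 for the average over both comparisons, against -0.47 ± 0.21 at the brightest (limma adjusted p 0.49).

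Angptl4 was the member with the largest positive difference. Mice with dystrophin had 8.77, 8.33 and 7.15 (wild type) and 7.65, 8.79 and 9.04 (Cmah knockout). Mice without it had 8.16, 9.82 and 8.59 (mdx) and 8.25, 9.99 and 10.01 (Cmah knockout mdx), so the groups overlapped. In each genotype the array of the 4 animals with the milder Gapdh difference was the lowest. The average change with dystrophin loss was 0.85 ± 0.44 (limma adjusted p 0.595). With those 4 animals as a block the error was 0.22 and the limma adjusted p 0.0622, still above the threshold.

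Mlycd was at 8.69, 9.42 and 9.20 in Cmah knockout and 8.06, 8.23 and 8.80 in Cmah knockout mdx, which overlap, a difference of -0.73 ± 0.36 (limma adjusted p 0.691). Slc27a1 was at 10.13, 10.78 and 10.54 against 9.97, 9.76 and 10.12, without overlap (-0.53 ± 0.31), and Ucp3 at a mean of 9.37 ± 0.32 (SD, n = 3) against 8.80 ± 0.12, also without overlap (-0.57 ± 0.33). In that comparison Cd36, Slc27a1, Ucp3, Crat, Acaa2 and Eci1 were lower in every Cmah knockout mdx array than in any Cmah knockout array, and 5.09% of all genes were. Between mdx and wild type this held for Crat alone, at 10.79, 10.97 and 10.94 against 11.09, 11.00 and 11.01, and for 2.63% of genes. In that comparison Acot2 had 0.40 ± 0.40, Acot1 0.32 ± 0.38 and Ppara -0.65 ± 0.67. The dimmer Ucp3 probe set had 0.66 ± 0.46 there, and -0.12 ± 0.33 in the average over both comparisons.

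Averaged over both comparisons, 4 members were higher and 27 lower in gastrocnemius, with a median of -0.19 against 0.02 for all genes. Of all genes, 48% were lower. Again 0 members were called (limma), 1 had an unadjusted p below 0.05, and 1.04% of genes were called higher and 0.159% lower. Crat was lower in all 6 arrays without dystrophin than in any of the 6 with it, as were 0.552% of genes. The average change was -0.09 ± 0.19 for Pdk4, -0.27 ± 0.31 for Hadha and -0.30 ± 0.28 for Ppargc1a.

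The regulators and the remaining enzymes of interest did not separate mdx from wild type in gastrocnemius. Ppara, the receptor itself, was at 7.95, 7.40 and 7.12 in wild type and 5.96, 7.06 and 7.51 in mdx, and at 5.75, 7.46 and 8.27 in Cmah knockout and 5.44, 7.12 and 7.25 in Cmah knockout mdx. In each genotype its lowest array was that of the animal with the milder Gapdh difference. Pdk4 was high throughout, at 12.86, 13.13 and 13.28 in wild type and 13.23, 13.02 and 12.93 in mdx. Hadha was at 9.77, 10.12 and 8.93 in wild type and 9.10, 9.26 and 9.85 in mdx. Acot2 was at 10.18, 11.16 and 10.67 in wild type and 11.41, 11.27 and 10.53 in mdx. Each of these pairs of groups overlapped.

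In the same average, of all related pathway lists 1 gene passed. Pdk3, a pyruvate dehydrogenase kinase, rose by 1.42 ± 0.26 (limma adjusted p 0.032), while the member Pdk4 of the same family did not pass. Bdh1, a ketone body dehydrogenase, was at -1.20 ± 0.27 (limma adjusted p 0.072), and Plin2, a lipid droplet protein, at 1.04 ± 0.27 (limma adjusted p 0.124). Ehhadh, a peroxisomal oxidation enzyme, was at -1.04 ± 0.33 and Esrrb at -1.17 ± 0.37. Of 26 further oxidation enzymes 20 were lower and 6 higher (median -0.17), close to the members' own median of -0.19. Citrate cycle genes were lower in 16 of 16 (median -0.07) and respiratory chain genes in 18 of 20 (median -0.08), with 0 called in these 3 lists. Of all genes, 48% were lower in this average.

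Macrophage markers moved with dystrophin loss in gastrocnemius: 5 of 17 were called higher (median 1.70), and their summed intensity was 9270 to 20740 in wild type and Cmah knockout arrays and 22833 to 48206 in arrays without dystrophin. Regenerating fibre markers were called higher in 6 of 9 (median 2.11). Of all genes, 1.04% were called higher and 0.159% lower in the average over both dystrophin comparisons. Adipocyte markers were lower in 8 of 8 with 0 called (median -0.67), with summed intensities of 15640 to 27397 in wild type, 15756 to 21821 in Cmah knockout, 14867 to 21169 in mdx and 13774 to 17557 in Cmah knockout mdx, which overlap. Fast fibre markers had a median of 0.02. The part of these cells in the members' values was not tested.

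**Figure D2:**
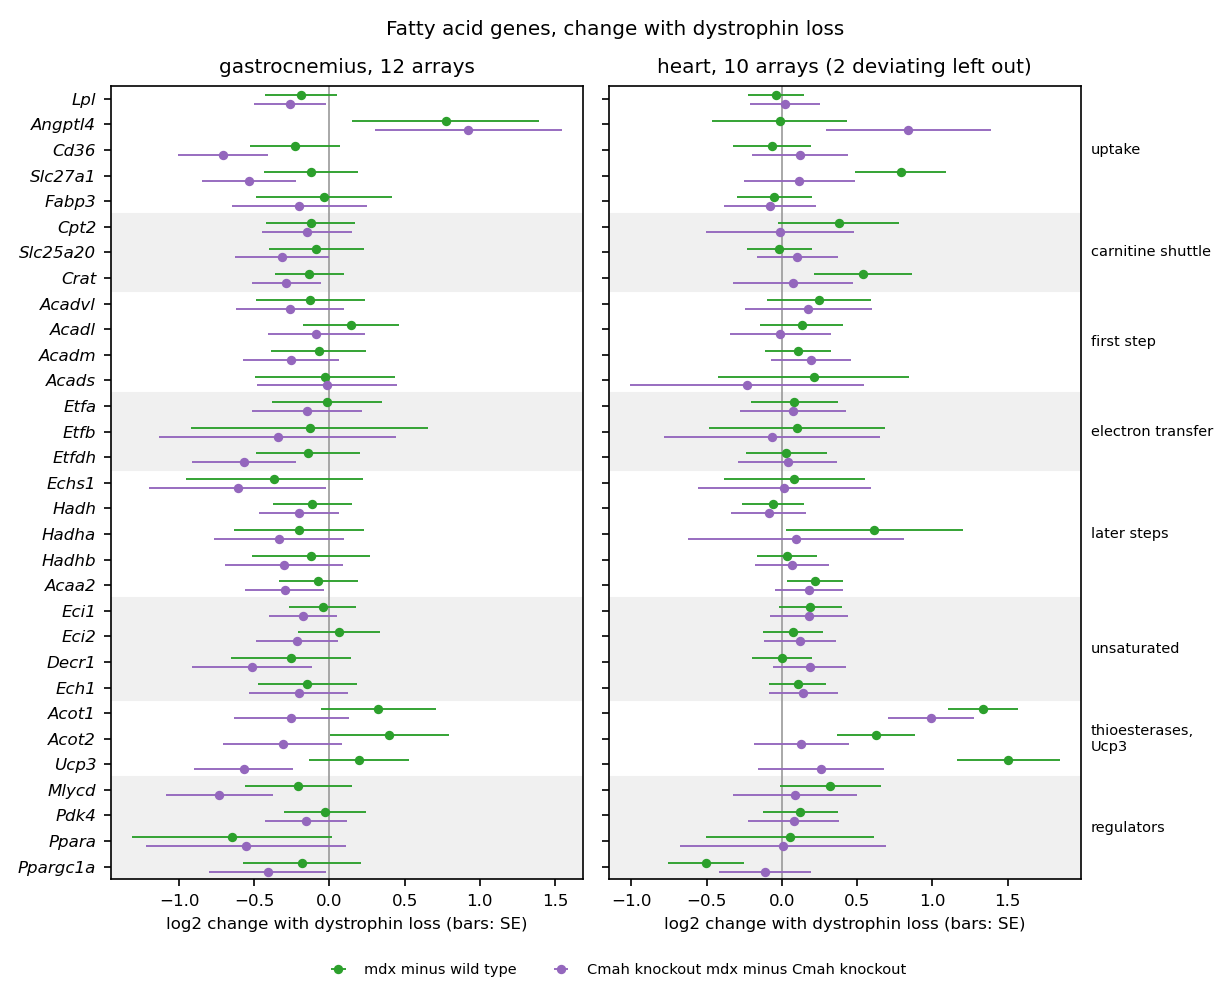
Change with dystrophin loss for each member (x axis, log2; bars are SE), in gastrocnemius (left, 12 arrays) and heart (right, 10 arrays, the 2 deviating ones left out), as mdx minus wild type (green) and Cmah knockout mdx minus Cmah knockout (purple). In gastrocnemius 25 members lie left of 0 in both comparisons and none passed the adjusted threshold. Of all genes, 47.3% and 47.8% were lower in the single comparisons there. In heart Acot1 and Ucp3 lie farthest to the right in mdx minus wild type, at 1.34 and 1.50.

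In heart, too, 0 of 31 members passed in any comparison of genotypes (limma, all arrays), and 0% of all genes were called in either direction in each of them. In mdx minus wild type 24 members were higher and 7 lower, with a median of 0.10 against 0.03 for all genes. Of all genes 54% were higher, and 2 members (Ucp3 and Acot1) had an unadjusted p below 0.05. In Cmah knockout mdx minus Cmah knockout 26 were higher and 5 lower with a median of 0.51. But the median of all genes was 0.31, 66.6% of them were higher, and each group held 1 deviating array. Without those arrays the member median was 0.09. The average over both comparisons gave 27 higher and 4 lower (median 0.29, all genes 0.17), and a median of 0.10 without the deviating arrays. Of all genes 68% were higher in that average. Between arrays of a group the member median varied with an SD of 0.48 in heart. At an unadjusted p below 0.05 there was 1 member (Acot1) with Cmah absent and 2 (Acot1 and Ucp3) in the average.

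Acot1 had the largest difference of the members in heart in the average over both comparisons and with Cmah absent, and Ucp3 in mdx minus wild type. Hearts with dystrophin had 6.78, 6.10 and 6.69 (wild type) and 7.09, 6.81 and 6.42 (Cmah knockout). Hearts without it had 7.79, 7.85 and 7.94 (mdx) and 7.98, 9.21 and 7.90 (Cmah knockout mdx). All 6 arrays without dystrophin lay above all 6 arrays with it, which held for 0.084% of genes. The change was 1.34 ± 0.45 in mdx minus wild type and 1.59 ± 0.45 in Cmah knockout mdx minus Cmah knockout, the latter 0.99 without the deviating arrays, of which one gave the highest value (9.21). The average was 1.46 ± 0.32 with an unadjusted p of 0.00057, and its limma adjusted p was 0.999. Without the deviating arrays that adjusted p was 0.736, and 0.150 with the 4 animals as a block as well (limma). Acot1 in gastrocnemius was at 5.10, 4.62 and 4.87 in wild type and 5.68, 5.23 and 4.66 in mdx, which overlap.

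Ucp3 in heart was lowest in wild type, at 6.84, 6.79 and 6.70. Cmah knockout hearts had 8.31, 7.89 and 8.00, mdx hearts 7.55, 8.76 and 8.53, and Cmah knockout mdx hearts 8.70, 9.35 and 8.01. At this probe set, the brightest, every array of the other 3 genotypes lay above every wild type array. That held for 0.214% of genes and for no other member, while those 3 genotypes overlapped one another. The difference from wild type was 1.50 ± 0.46 for mdx and 1.29 ± 0.46 for Cmah knockout, with limma adjusted p of 1.00 and 0.686. The dimmer Ucp3 probe set gave 1.36 ± 0.64 for mdx minus wild type, but 0.43 ± 0.45 for the average over both dystrophin comparisons. At that probe set Cmah knockout (5.20, 6.80 and 6.56) overlapped wild type (6.21, 5.35 and 6.21). The separation of wild type from all other genotypes therefore rests on the brightest probe set.

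With array weights in limma, which lower the weight of arrays far from their group, Acot1 (1.12 ± 0.16, adjusted p 0.0123) and Ucp3 (1.29 ± 0.24, adjusted p 0.0416) passed in mdx minus wild type in heart. In that fit 133 of 29421 probe sets passed, or 0.452%. Fasn, the fatty acid synthase, and Acaca, which makes malonyl-CoA, also passed there, at 2.00 and 1.30. No other setting called a member in heart.

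Slc27a1, Acaa2, Acot1 and Ucp3 were higher in every mdx heart array than in any wild type heart array, and 3.97% of genes were. Slc27a1 was at 11.00, 10.95 and 10.96 in mdx against 10.50, 9.65 and 10.39 in wild type, a difference of 0.79 ± 1.01 with all arrays. Crat was at 0.54 ± 0.48, with values of 10.85, 11.20 and 11.31 in mdx against 10.78, 9.98 and 10.99 in wild type, which overlap. Ppargc1a had the opposite sign at -0.50 ± 0.45, with values of 10.88, 10.90 and 11.09 in mdx against 11.84, 11.50 and 11.03 in wild type, which overlap. Acot2 (0.63 ± 0.67) had a mean of 12.26 ± 0.22 (SD, n = 3) in mdx against 11.64 ± 0.38 in wild type, and Ppara was at 8.45, 8.07 and 8.65 against 8.65, 7.54 and 8.82, both overlapping. Pdk4, at 12.72, 13.19 and 13.07 against 12.92, 13.06 and 12.63, overlapped as well. Between Cmah knockout mdx and Cmah knockout, Acot1 was the member that did not overlap, on the higher side, as 2.34% of genes were. Eci2 and Etfdh had 1.22 ± 0.65 and 1.37 ± 0.90 there, which became 0.12 and 0.04 without the deviating arrays.

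Markers of other cells varied in heart, and 0 genes of the lists given here were called in mdx minus wild type. Adipocyte marker sums were 9627 to 9797 in wild type and 8545 to 16219 in mdx, with 7 of 8 markers higher in mdx (median 0.73). Fast fibre marker sums were 5183 to 28495 in wild type and 8239 to 25619 in mdx, with 10 of 12 higher (median 0.52). Macrophage markers were lower in 14 of 17 (median -0.40), with sums of 13565 to 24155 in wild type and 13362 to 16521 in mdx. Fibroblast markers were lower in 11 of 12 (median -0.32), with sums of 21427 to 31218 against 13602 to 22045. Both red blood cell markers tested were higher (median 1.00). Ucp3 is a gene of skeletal muscle and brown fat as well as heart. Ucp1, a brown fat gene, was at 5.62, 7.74 and 3.87 in wild type hearts and 7.70, 4.20 and 8.81 in mdx hearts, and Adipoq, an adipocyte hormone, at 6.66, 7.53 and 6.41 against 10.10, 3.83 and 8.47. The part of such cells in the Ucp3 and Acot1 values was not tested.

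**Figure D3:**
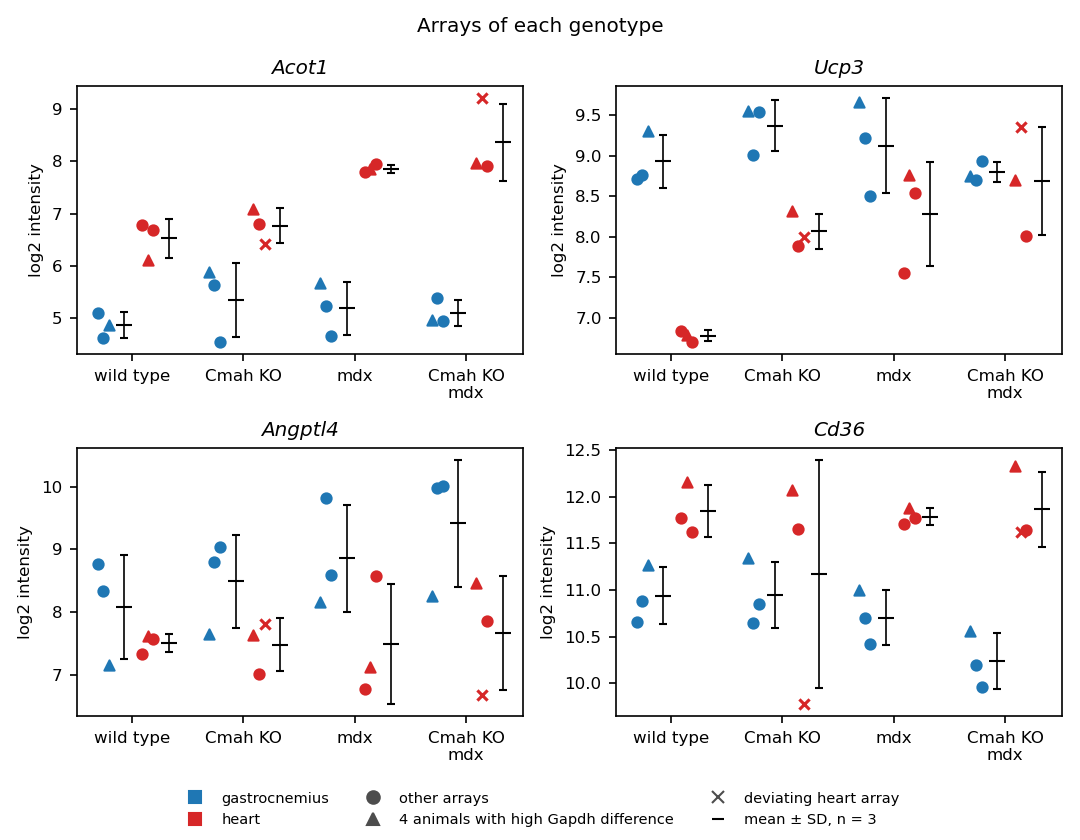
Log2 intensity (y axis) of Acot1, Ucp3, Angptl4 and Cd36 in each array by genotype (x axis), gastrocnemius in blue and heart in red; triangles are the 4 animals with the milder Gapdh difference, crosses the deviating heart arrays, and bars the mean ± SD (n = 3). Acot1 in heart lies at 7.79 to 9.21 without dystrophin and at 6.10 to 7.09 with it. Ucp3 in heart lies lowest in wild type at the brightest probe set, which is the one shown.

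Cmah loss was read in the same way, and 0 members passed in either tissue (limma). In gastrocnemius Cmah knockout minus wild type gave 23 higher and 8 lower (median 0.07, all genes 0.04). Of all genes 56.3% were higher, and 0% were called in either direction. The 2 smallest p belonged to Ucp3 (0.44 ± 0.33) and Acot1 (0.49 ± 0.38), both unadjusted p above 0.05. Acaa2 was the member higher in every Cmah knockout array, at 11.63, 11.63 and 11.54 against 11.46, 11.30 and 11.41, as were 1.62% of genes. Cmah knockout mdx minus mdx gave 5 higher and 26 lower (median -0.13, all genes 0.05, 0% of genes called), where 41.2% of genes were lower. Cd36 (-0.47 ± 0.30) and Etfdh (-0.36 ± 0.35) led, again with 0 members at an unadjusted p below 0.05. The interaction, which compares both readings of Cmah loss, called 0 members and 0% of genes. It gave 3 higher, 28 lower, a median of -0.18 and 0 members at an unadjusted p below 0.05, and 48.1% of genes were lower.

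In heart Cmah knockout minus wild type gave 5 higher and 26 lower with a median of -0.52, where all genes had -0.43. Of all genes 70.9% were lower and 0% were called, and 1 member (Ucp3) had an unadjusted p below 0.05. Ucp3 was the member higher without overlap (2.34% of genes) and Decr1 the member lower without overlap (3.11%). Decr1 was at 11.86, 12.18 and 10.43 against 12.32, 12.20 and 12.32. Without the deviating Cmah knockout array the member median was 0.00, and Etfdh went from -1.63 ± 0.90 to -0.21 ± 0.30. Cmah knockout mdx minus mdx gave 9 higher and 22 lower (median -0.21, all genes -0.10), where 56.9% of genes were lower. Slc27a1 was lower without overlap (10.34, 8.99 and 10.89 against 11.00, 10.95 and 10.96), as were 4.9% of genes. Echs1 (-1.11 ± 0.66) and Hadha (-1.35 ± 0.96) had the smallest p there and came to -0.37 and -0.52 without the deviating arrays. The interaction in heart gave 23 higher and 8 lower (median 0.20, all genes 0.28) with 0 called, and 64% of genes were higher. In these last 2 comparisons 0 members had an unadjusted p below 0.05.

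Whether dystrophin loss acted differently in the tissues was tested directly. For 29 members the change was more positive in heart than in gastrocnemius and for 2 it was less so, with a median of 0.49 against 0.14 for all genes, and 0 members were called (limma). Of all genes 60.3% changed in the first direction, 0.0568% were called in it and 0.759% were called in the second. The comparison shares its arrays with those above, so the median is no separate observation. Acot1 (1.43 ± 0.37, limma adjusted p 0.105) and Ucp3 (1.25 ± 0.34, limma adjusted p 0.137) came closest, at 1.16 and 1.07 without the deviating arrays, and had the only unadjusted p below 0.05. Cd36 was next at 0.79 ± 0.39. These values are of the brightest probe sets, and the dimmer Ucp3 probe set is not given here for this comparison.

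By animal, heart exceeded gastrocnemius for Acot1 by 1.66 ± 0.47 (SD, n = 3) for wild type and 1.42 ± 0.39 for Cmah knockout. Without dystrophin the difference was 2.67 ± 0.48 (mdx) and 3.27 ± 0.90 (Cmah knockout mdx). Every animal without dystrophin showed a larger difference (lowest 2.18) than any animal with it (highest 2.16), by a margin far below the spread within groups. Ucp3 in wild type had a difference of -2.15 ± 0.32. The same heart minus gastrocnemius difference was -1.30 ± 0.22 for Cmah knockout and -0.84 ± 0.14 for mdx. For Cmah knockout mdx it was -0.11 ± 0.56, and there 1 animal, with a deviating heart array, was higher in heart. Wild type lay below every animal of the other genotypes, and mdx and Cmah knockout mdx overlapped.

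Several members also differed between the 4 animals with the milder Gapdh difference and the rest, in every genotype. In gastrocnemius 9 members were lower in all 4 arrays than in the other 8 (Fabp3, Etfb, Ech1, Hadhb, Etfa, Cpt2, Hadha, Echs1 and Angptl4), and 3 were higher (Pdk4, Slc25a20 and Decr1), against 12.8% and 6.99% of genes. In heart, without the deviating arrays, 13 were lower in the 4 arrays than in the other 6 and 2 were higher (Slc25a20 and Cd36), against 21.1% and 12.4% of genes. Etfb was at 10.18 to 10.58 in those gastrocnemius arrays against 11.93 to 12.67, a difference of -1.92, and at 11.42 to 11.89 against 12.82 to 13.12 in heart. The genotype differences of Etfb in gastrocnemius reached at most -0.34. Because the 4 animals are 1 of each genotype, every genotype mean holds 1 such array.

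Probe sets of one gene went opposite ways with this split. For Decr1 the probe set read in gastrocnemius was at 11.04 to 11.76 in the 4 arrays and 10.28 to 11.03 in the rest, while the other probe set was lower in the 4 arrays (-0.62, with overlap). For Cd36 in heart the brightest probe set was at 11.88 to 12.33 against 11.62 to 11.77, and another at 11.43 to 11.77 against 12.05 to 12.53. For Slc25a20 in heart one probe set was higher in the 4 arrays by 0.29 and the other lower (-0.57). The level of these genes in a single array therefore depended on the probe set read, and what separates the 4 animals was not tested.

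**Figure D4:**
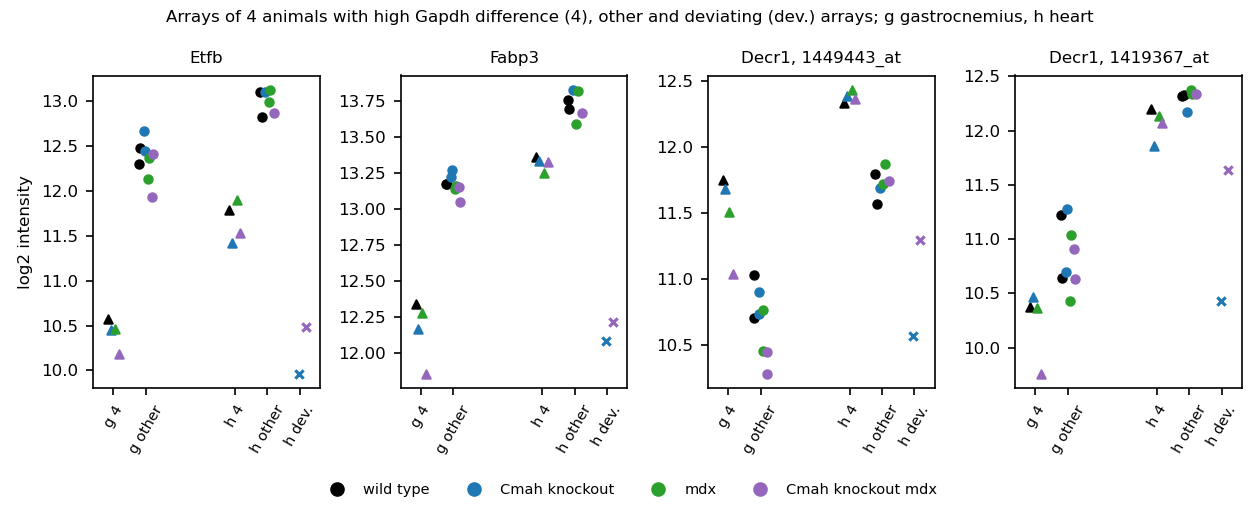
Log2 intensity (y axis) of Etfb, Fabp3 and both Decr1 probe sets in the arrays of the 4 animals with the milder Gapdh difference (4), the other arrays and the deviating heart arrays (dev.), in gastrocnemius (g) and heart (h), coloured by genotype. Etfb and Fabp3 lie lower in the 4 animals in both tissues, and the Decr1 probe sets differ in opposite directions, the second with overlap.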

How the data were processed

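RNA of 24 tissues (25 ng input, NuGEN Ovation amplification per the labels' protocols) was hybridised to Affymetrix mouse arrays. The deposited values are linear intensities per probe set, made by the authors with GCOS and RMA per the submitters' processing notes; versions and how arrays were scaled to each other are not given in the sources used here. Arrays of a group are separate animals, whose numbers the labels give. Intensities were converted to log2, and the 64 control probe sets were left out of 45101. Gene names came from the platform annotation, updated by gene number: 34945 probe sets had 1 symbol, 932 several and 9160 none. Probe sets above the 40th percentile of the tissue's values on at least 3 arrays were tested with limma 3.58.1 in R 4.3.3 (lmFit, eBayes), 1 fit of 4 genotypes per tissue, and for tissue differences 1 fit of 24 arrays with animal as a random block (consensus correlation 0.214). P-values were adjusted by Benjamini-Hochberg over all probe sets tested, at a threshold of 0.05. A gene was read at its brightest probe set in the tissue, or over all 24 arrays for tissue differences, and shares of all genes were counted likewise. For tissue differences the 40th percentile was that of all values of both tissues. Deviating arrays are the 2 heart arrays whose Gapdh control probe sets differ by over 3 log2.

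The members and gene lists were chosen with earlier results of these data known. All members could be named, and array values were given for members past the threshold or with the smallest p in a comparison (4 for dystrophin, 2 for Cmah), the largest tissue differences and 10 members set out by name. From other lists, up to 3 genes past the threshold or 2 with the smallest p were named. Regulatory windows are RefSeq sequences (GRCm38.p6). Alternatives covered the filter, scaling, variance model, array weights, a Gapdh covariate, 2-group fits, blocks, probe set choice and left-out arrays. The 4 alternatives on deviating arrays and on the 4 animals with the milder Gapdh difference were chosen after seeing the data. The fits were tested on simulated data.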

Additional observations from a re-analysis of the deposited data

How the results depend on the processing

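For heart minus gastrocnemius between 13 and 26 members were called over all alternatives (19 with the chosen settings) and between 19 and 24 with any one array left out, with a member median of 0.67 to 1.07. Shares of all probe sets called moved as well, from 26.8% with the chosen settings to 51.4% with array weights. They were 40.4% without the deviating hearts and 17.5% without the 4 animals with the milder Gapdh difference. Without the 4 animals with the milder Gapdh difference, Hadhb, Echs1, Eci1, Eci2, Etfdh and Acot2 were no longer called. In wild type alone, 4 members were called, and 9 with quantile normalization, 7 with an intensity trend and robust moderation, 20 with array weights, 14 with the Gapdh difference as a covariate, 9 with the median over probe sets, 15 without the deviating hearts, 1 without the 4 animals, and 1 to 3 with any one array left out. Of all probe sets, 6.36% were called in wild type with the chosen settings and 22.6% with array weights. That share was 16.2% without the deviating hearts and 3.13% without the 4 animals. For tissue by dystrophin 1 member was called with the Gapdh covariate. Within tissues 0 members were called under every alternative, except 2 with array weights for heart, mdx minus wild type. With the replicate number as a block 0 members were called in every comparison within a tissue; the numbers do not pair the samples, since deviations of same-numbered arrays correlated at 0.04 on average in gastrocnemius and 0.01 in heart.

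The heart median of Cmah knockout minus wild type (-0.52) was -0.026 with the Gapdh covariate, 0.00078 without the deviating hearts, 0.028 with the 4-animal block as well, and -0.93 to 0.00078 with any one array left out; that of Cmah knockout mdx minus Cmah knockout (0.51) was -0.030 to 0.87. Without the deviating hearts, 11 of 31 members turned direction in heart for Cmah knockout minus wild type, 6 for Cmah knockout mdx minus Cmah knockout, 4 for Cmah knockout mdx minus mdx and 14 for the interaction, none of them called. Of the member results named by the naming rule, 8 genes turned direction under an alternative. With array weights the tissue difference was 0.21 for Slc27a1, 0.050 for Pdk4 and -0.091 for Crat; with the Gapdh covariate it was 0.50 for Slc27a1 and -0.075 for Crat; without the deviating hearts it was 0.32 for Slc27a1 and -0.082 for Crat. With any one array left out it ran from -0.43 to 0.18 for Slc27a1 and from -0.068 to 0.13 for Crat, with -0.012 for Crat without the third wild type heart. Etfb was at -0.036 without the 4 animals. With the median over probe sets, Cd36 in gastrocnemius (average dystrophin loss) was at 0.10 and Ppargc1a in heart (Cmah knockout mdx minus Cmah knockout) at 0.094. In that heart comparison Etfdh ran from -0.045 to 2.24 with any one array left out, and Hadha in heart, Cmah knockout mdx minus mdx, was at 0.038 with the Gapdh covariate. The cause was not tested. Background was not measured in the deposited values; 1 member (Acot1, gastrocnemius) had an array below the 40th percentile of its tissue.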
